A study of Mus musculus with 16 samples.

Results

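Hox genes are the subject here: every row of the deposited tables whose symbol is Hox followed by a cluster letter a to d and a paralog number was taken, which gave 37 of the 36829 features. Any other Hox gene was not analysed here. The tables come from the cortical bone of the femur of 16 female C57Bl/6 mice aged 11 weeks, each with its own library. In 8 mice the hindlimbs were unloaded for 7 days by suspension from the tail (hindlimb unloading, HLU), and 8 control mice kept normal weightbearing. The bone ends were cut off and the marrow flushed out before the shaft was homogenized whole, so the samples are mixtures in which fewer cells of a type and less RNA per cell cannot be told apart.

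Hox genes encode homeodomain transcription factors that lie in 4 clusters, HoxA to HoxD, and are switched on in the embryo in the order in which they stand, so that low paralog numbers mark anterior and high numbers posterior or distal positions. In the limb the paralog groups from the middle to the end of the clusters are needed in turn for the segment nearest the trunk, which holds the femur, then the lower leg and then the foot. Skeletal cells keep part of this positional pattern in the adult, and another set of Hox genes, chiefly of the HoxA and HoxB clusters, is used by blood stem and progenitor cells, which differ from bone cells in origin.

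The reads behind the RPKM values of a library (reads scaled to gene length and library size) ranged from 7067512 to 21363584, and 660 to 2860 reads a mouse fell on Hox genes. Each of the 20 genes of a bone list was kept, with means from 3.51 to 556 RPKM, among them Col1a1 (type I collagen, 295 RPKM) and the osteocyte gene Sost (81.2 RPKM). Marrow RNA was present as well, since the 8 granulocyte genes listed reached 10920 RPKM and the 14 erythroid genes 1003 RPKM. Of the 12 genes of the skeletal muscle list, only 3 had values in the data used here, and 1 of these was kept, Myod1 (1.63 RPKM). The signal of skeletal muscle could thus be followed by Myod1 alone, and this list does not show how much muscle RNA was present. The score of a list is the average of its genes on the log2(RPKM + 0.1) scale, after each gene's own mean is subtracted. The bone score was 0.05 higher in HLU than in control mice (two-sided exact permutation test, p = 0.857), and the marrow score, the mean of the erythroid, granulocyte and B lymphocyte scores, was lower by 0.39 (-0.39, p = 0.118). Of its parts, the erythroid score differed by -0.58 (exact permutation test, p = 0.0544), the B lymphocyte score by -0.47 (p = 0.114) and the granulocyte score by -0.12 (p = 0.616), and a megakaryocyte score outside it by -0.58 (p = 0.0401, exact permutation tests, not adjusted over the 12 scores compared). The marrow score ranged from -0.30 to 0.56 in control and from -1.10 to 0.62 in HLU mice.

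Sequences around the starts of 6 Hox genes are shown because the results turn on them: Hoxa9 has the highest level, Hoxa10 and Hoxa11 lie on either side of the steepest step in the HoxA cluster, Hoxd9 and Hoxd11 stand at the upper and lower ends of the fall in HoxD, and Hoxb4 was the one gene that rose with marrow genes. Each is 300 bases from RefSeq (GRCm38.p6), 250 before and 50 after the start, 5′ to 3′ on the gene's strand, with the dinucleotide CG, the site of DNA methylation, in capitals. The windows are chr6:52227321-52227620 (minus strand) for Hoxa9, chr6:52240805-52241104 (minus) for Hoxa10, chr6:52245761-52246060 (minus) for Hoxa11, chr2:74697513-74697812 (plus) for Hoxd9, chr2:74679308-74679607 (plus) for Hoxd11 and chr11:96318017-96318316 (plus) for Hoxb4.
Hoxa9: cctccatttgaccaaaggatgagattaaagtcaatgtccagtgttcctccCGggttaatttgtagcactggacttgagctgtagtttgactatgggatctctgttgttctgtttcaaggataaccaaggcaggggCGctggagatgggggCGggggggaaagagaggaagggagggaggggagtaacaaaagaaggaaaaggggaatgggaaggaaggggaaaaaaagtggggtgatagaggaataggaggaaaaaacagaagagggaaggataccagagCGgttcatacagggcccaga
Hoxa10: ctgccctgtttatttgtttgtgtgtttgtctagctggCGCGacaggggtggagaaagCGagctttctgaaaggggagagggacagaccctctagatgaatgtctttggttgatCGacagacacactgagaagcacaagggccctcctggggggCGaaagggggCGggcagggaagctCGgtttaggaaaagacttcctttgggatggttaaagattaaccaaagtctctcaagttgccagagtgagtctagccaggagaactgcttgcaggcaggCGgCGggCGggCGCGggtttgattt
Hoxa11: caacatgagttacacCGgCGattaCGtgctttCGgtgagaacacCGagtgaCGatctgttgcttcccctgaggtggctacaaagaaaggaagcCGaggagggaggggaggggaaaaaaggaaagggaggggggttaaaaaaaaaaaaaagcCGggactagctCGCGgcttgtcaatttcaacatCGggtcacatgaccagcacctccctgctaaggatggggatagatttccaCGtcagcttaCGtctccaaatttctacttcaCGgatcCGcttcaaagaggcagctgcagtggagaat
Hoxd9: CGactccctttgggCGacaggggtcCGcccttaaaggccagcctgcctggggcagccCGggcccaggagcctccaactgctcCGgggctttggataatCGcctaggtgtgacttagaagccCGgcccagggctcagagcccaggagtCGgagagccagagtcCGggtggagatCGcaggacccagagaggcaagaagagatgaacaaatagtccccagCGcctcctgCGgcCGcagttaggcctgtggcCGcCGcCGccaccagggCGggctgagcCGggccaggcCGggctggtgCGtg
Hoxd11: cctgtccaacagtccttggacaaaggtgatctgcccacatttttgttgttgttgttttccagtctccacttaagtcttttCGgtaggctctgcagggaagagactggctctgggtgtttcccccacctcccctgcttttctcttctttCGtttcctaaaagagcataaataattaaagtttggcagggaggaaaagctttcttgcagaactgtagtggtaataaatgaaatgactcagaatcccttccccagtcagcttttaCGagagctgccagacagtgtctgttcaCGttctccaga
Hoxb4: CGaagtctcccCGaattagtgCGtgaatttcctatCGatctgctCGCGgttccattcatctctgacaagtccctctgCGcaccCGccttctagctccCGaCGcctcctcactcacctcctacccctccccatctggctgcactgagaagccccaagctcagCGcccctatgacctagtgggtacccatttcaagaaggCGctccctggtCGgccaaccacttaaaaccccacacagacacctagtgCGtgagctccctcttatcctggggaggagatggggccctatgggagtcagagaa
CG reads the same on both strands. It occurred 4 times in the window of Hoxa9, 12 times in Hoxa10, 15 times in Hoxa11, 20 times in Hoxd9, 4 times in this start of Hoxd11 and 14 times in Hoxb4. The table holds a second start of Hoxa10 with 21 and of Hoxd11 with 25, so the order of these genes by CG depends on the start. At least 1 CG was found in all 23 Hox windows of the table, which cover 21 of the 37 genes, and in 94.6% of the 32851 windows of all genes. The median was 15 for the Hox windows and 7 for all windows. Among the Hox windows, the 10 of genes kept below had a median of 10.5, and the 13 of genes not kept had 20. The highest counts were those of Hoxa13 with 45 and Hoxd13 with 37, both among the genes with fewest reads, but Hoxb1 (9 reads) had 10 and Hoxd12 (no read) had 13.

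Of the 37 Hox genes, 33 had a read in at least 1 mouse, 17 averaged 0.5 RPKM or more and were kept for the tests, and 20 were not kept. Together they gave 19.6 to 37.1 RPKM a mouse in the control group and 23.7 to 37.9 RPKM in the HLU group. The HoxA cluster held 41.0% of the summed level, HoxC 30.0%, HoxB 15.9% and HoxD 13.1%. By paralog number, groups 4 to 8 held 58.1% of the level, groups 9 and 10 28.8%, groups 1 to 3 9.59%, group 11 3.19%, and groups 12 and 13 0.285%. In sum, transcripts thus came mostly from the middle of the clusters, with fewer from the 3′ end and fewest from the 5′ end. These shares are sums over unequal numbers of genes, and they and the counts below cover only the Hox genes analysed. Hoxc10 and Hoxd4 were not among them, so the shares of their groups and clusters leave these genes out. Groups 4 to 8 had 14 genes (17.4 RPKM in sum), groups 9 and 10 had 6 (8.61 RPKM) and groups 1 to 3 had 8. Group 11 had 3 genes, and groups 12 and 13 had 6. Per gene analysed, groups 9 and 10 were not lower than groups 4 to 8.

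**Figure D1:**
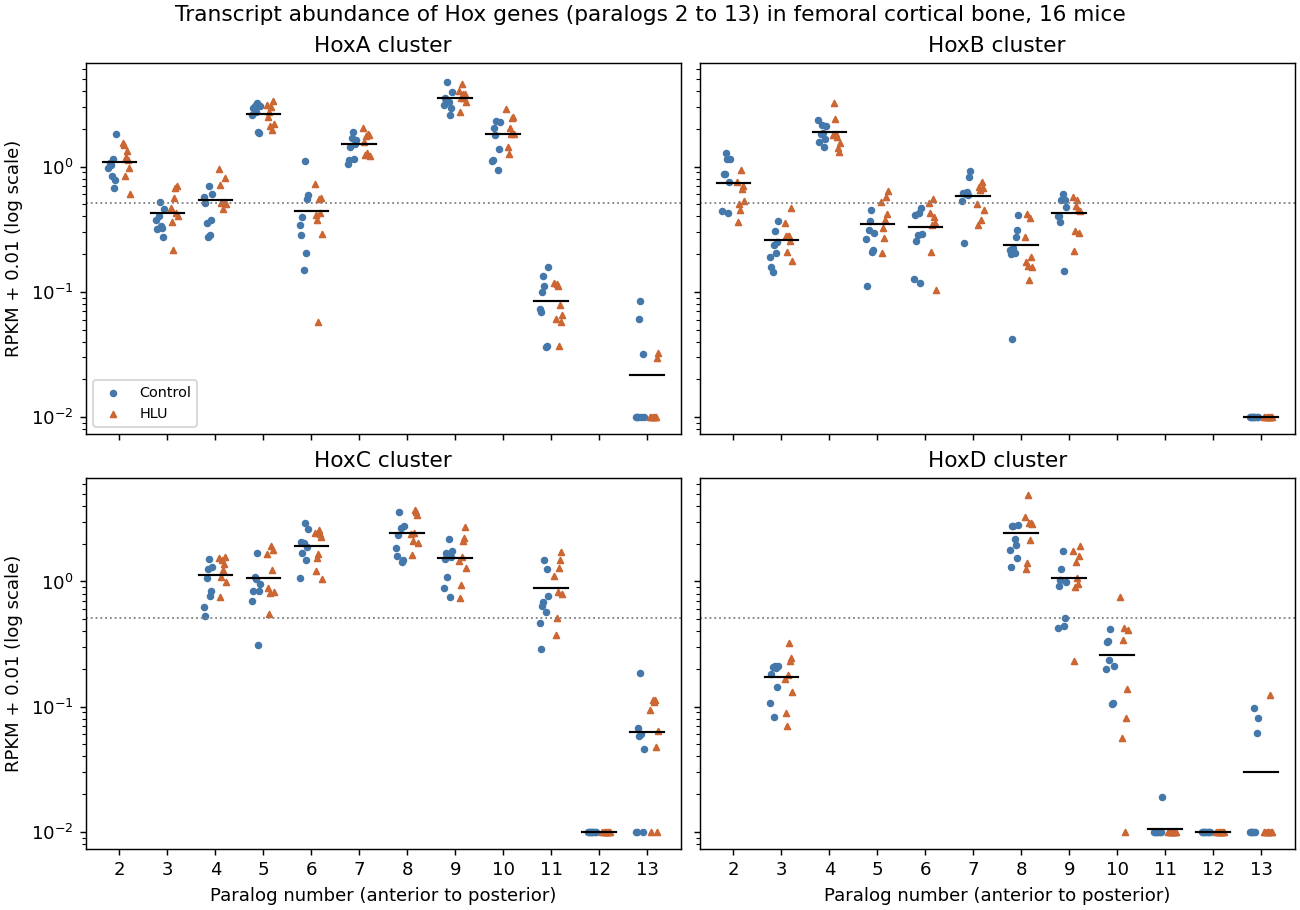
Transcript abundance of the Hox genes of paralogs 2 to 13 by paralog number, 1 panel for each cluster, with RPKM + 0.01 on a log axis. Each point is a mouse (blue circles, control; orange triangles, HLU; 8 each), black bars are means over 16 mice, and the dotted line is the limit of 0.5 RPKM; levels fall steeply after paralog 10 in HoxA, 9 in HoxD and 11 in HoxC, while HoxB has no paralog between 9 and 13.

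In the HoxA cluster (chromosome 6, GRCm38), Hoxa9 had the highest mean of any Hox gene, 3.55 RPKM from 4392 reads, followed by Hoxa5 at 2.63, Hoxa10 at 1.82, Hoxa7 at 1.51, Hoxa2 at 1.08 and Hoxa4 at 0.53 RPKM. Hoxa9, needed by blood stem cells, ranged from 2.59 to 4.75 RPKM in control mice. Hoxa6 (0.43) and Hoxa3 (0.42 RPKM) were detected in all 16 mice below the limit. The step came after Hoxa10: Hoxa10 had 3496 reads and Hoxa11, a gene of the lower limb segment, had 91, a ratio of levels of 24.3 (exact 95% interval for counting error 19.7 to 30.2). Hoxa13, a gene of the foot and of the hind end of the body, had 19 reads in 5 mice.

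The HoxD cluster (chromosome 2) showed the same order over fewer genes. Hoxd8 had a mean of 2.42 RPKM and Hoxd9 1.07 RPKM, while Hoxd10 had 0.25 RPKM from 85 reads. The level of Hoxd9 was 4.18 times that of Hoxd10 (interval 3.33 to 5.32). Hoxd11 was left with a single read, in 1 control mouse, and Hoxd12 and Hoxd1 had none. A count of 0 allows up to 3 reads over the 16 libraries, which is 0.00475 RPKM for Hoxd12 and 0.00647 RPKM for Hoxd1 at their GENCODE M21 lengths. Hoxd13 had 14 reads in 4 mice and Hoxd3 0.16 RPKM.

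In HoxC (chromosome 15), 6 of the 8 genes analysed were kept. Hoxc8 had 2.43 RPKM, Hoxc6 1.92, Hoxc9 1.52, Hoxc4 1.11, Hoxc5 1.06 and Hoxc11 0.88 RPKM. Hoxc11 was thus the one paralog 11 gene above the limit, with 458 reads, and the level of Hoxc9 was 1.66 times its own (interval 1.49 to 1.86). Hoxc10, which stands between these paralog numbers, was not analysed. Hoxc12 had no read, which allows up to 0.0117 RPKM, and Hoxc13 had 33 reads in 11 mice, or 0.053 RPKM.

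HoxB (chromosome 11) differed in shape. Hoxb4, which expands blood stem cells when raised in them, led with 1.88 RPKM, and Hoxb2 (0.73) and Hoxb7 (0.58 RPKM) were the other two kept. Hoxb9 (0.41), Hoxb5 (0.34), Hoxb6 (0.32), Hoxb3 (0.25) and Hoxb8 (0.23 RPKM) were detected in all 16 mice. Hoxb1 had 9 reads in 5 mice, and Hoxb13 had none, which allows up to 0.00546 RPKM.

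The order of genes by level rests on gene lengths that the files imply and that are not those of GENCODE M21. For the 33 genes with reads the implied length was equal to the M21 exon length in 4, longer in 24 and shorter in 5, at 0.730 to 2.95 times. With M21 lengths, an alternative chosen after the data had been seen, Hoxd8 came first at 4.36 RPKM, then Hoxa10 at 4.198 and Hoxa9 at 3.17, while Hoxa5 went from the second to the sixth place. The step from Hoxa10 to Hoxa11 was 26.9-fold with these lengths and that from Hoxd9 to Hoxd10 5.86-fold. The libraries do not mark the strand, so reads of antisense genes cannot be told apart from those of Hoxa3, Hoxa4, Hoxa7, Hoxa11, Hoxb2, Hoxb3, Hoxb5 and Hoxd3, whose exons overlap one in M21. Exons of Hoxa2, Hoxa3, Hoxa9, Hoxc5, Hoxd3, Hoxd10 and Hoxd11 overlap other genes on the same strand. For Hoxc5 the other gene is Hoxc10, and for Hoxd3 Hoxd4 is among them. How reads in these overlaps were assigned is not known here.

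Whether a week of unloading altered the Hox pattern was tested with limma on log2(RPKM + 0.1), with Benjamini-Hochberg adjustment over all 16973 features kept. By limma, 0 Hox genes were called at an unadjusted p under 0.05 with at least a 1.2-fold change, where 1.11% of all features were called higher and 4.76% lower, and voom on the recovered reads called 0 as well. At an adjusted p under 0.1, 0 of the 16973 features were called. The lowest unadjusted p of the 17 genes was 0.108 (Hoxa4), and the lowest adjusted p 0.744. By the exact permutation test over 12870 splits the lowest p was 0.0573, again for Hoxa4, and the lowest of the 16 genes with reads below the limit was 0.0628 (Hoxb5). Log2 changes ran from -0.41 (Hoxb2) to 0.40 (Hoxa4), with standard errors from 0.13 to 0.37. The median change was 0.14 for the 17 Hox genes and -0.10 for all features, and 12 of the 17 lay above 0 against 32.1% of all features. After median-of-ratios rescaling these medians were 0.23 and -0.01, and the calls over all features went from 188 higher and 808 lower to 381 higher and 395 lower.

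Hoxa4 measured 0.26 RPKM at the lowest, 0.43 at the median and 0.69 at the highest in control mice, and 0.45, 0.51 and 0.95 RPKM in HLU mice. All 8 HLU mice lay above the control median, yet 5 of them stayed within the control range. Its log2 change was 0.40 (SE 0.24, adjusted p = 0.744).

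Hoxb2 measured 0.42, 0.86 and 1.27 RPKM in control and 0.35, 0.58 and 0.93 RPKM in HLU mice. Only 1 HLU mouse was above the control median, and the ranges overlapped. The log2 change was -0.41 (SE 0.25, unadjusted p = 0.128, adjusted p = 0.747). It passed an unadjusted p of 0.05 in the limma fit without control mouse 6 (-0.52, unadjusted p = 0.0493), with the bone and marrow scores as covariates (-0.50, unadjusted p = 0.0345) and with the tendon and periosteum score as covariate (-0.51, unadjusted p = 0.0396).

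Hoxa10 measured 0.92, 1.58 and 2.32 RPKM in control and 1.24, 1.92 and 2.89 RPKM in HLU mice, with 3 HLU mice above every control mouse. The log2 change was 0.33 (SE 0.22, adjusted p = 0.7501). Hoxc4 measured 0.52, 0.94 and 1.49 RPKM in control and 0.74, 1.29 and 1.55 RPKM in HLU mice. Its change of 0.36 (SE 0.22, unadjusted p = 0.125) passed 0.05 in the limma fit under quantile normalization (0.40, unadjusted p = 0.0466).

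Hoxd8 measured 1.29, 2.06 and 2.83 RPKM in control and 1.24, 2.89 and 4.92 RPKM in HLU mice. In HLU, 5 mice exceeded every control mouse, while the lowest mouse of all was also an HLU mouse, so the HLU range was the wider one and the change of 0.27 (SE 0.25) was about the size of its error. Hoxd9 measured 0.42, 0.94 and 1.73 RPKM in control and 0.22, 1.24 and 1.93 RPKM in HLU mice. Its change was 0.37 (SE 0.37, unadjusted p = 0.333), and without HLU mouse 2, the lowest, 0.63 (limma, unadjusted p = 0.0449).

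Hoxa9, the gene with the smallest standard error, measured 2.59, 3.31 and 4.75 RPKM in control and 2.71, 3.66 and 4.60 RPKM in HLU mice. Its change was 0.09 (SE 0.13), and an interval of 2 SE reached from -0.17 to 0.36. Hoxa5 measured 1.85, 2.82 and 3.20 RPKM in control and 1.97, 2.59 and 3.35 RPKM in HLU mice, a change of -0.02 (SE 0.15, 2 SE from -0.33 to 0.28). For Hoxb4 the values were 1.41, 1.84 and 2.35 RPKM in control and 1.31, 1.75 and 3.21 RPKM in HLU mice, a change of -0.01 (SE 0.17, 2 SE from -0.36 to 0.34). A 2-fold change lay outside these 3 intervals. The intervals of Hoxd9 (-0.37 to 1.10) and Hoxc11 (-0.30 to 1.02) took in a 2-fold rise.

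**Figure D2:**
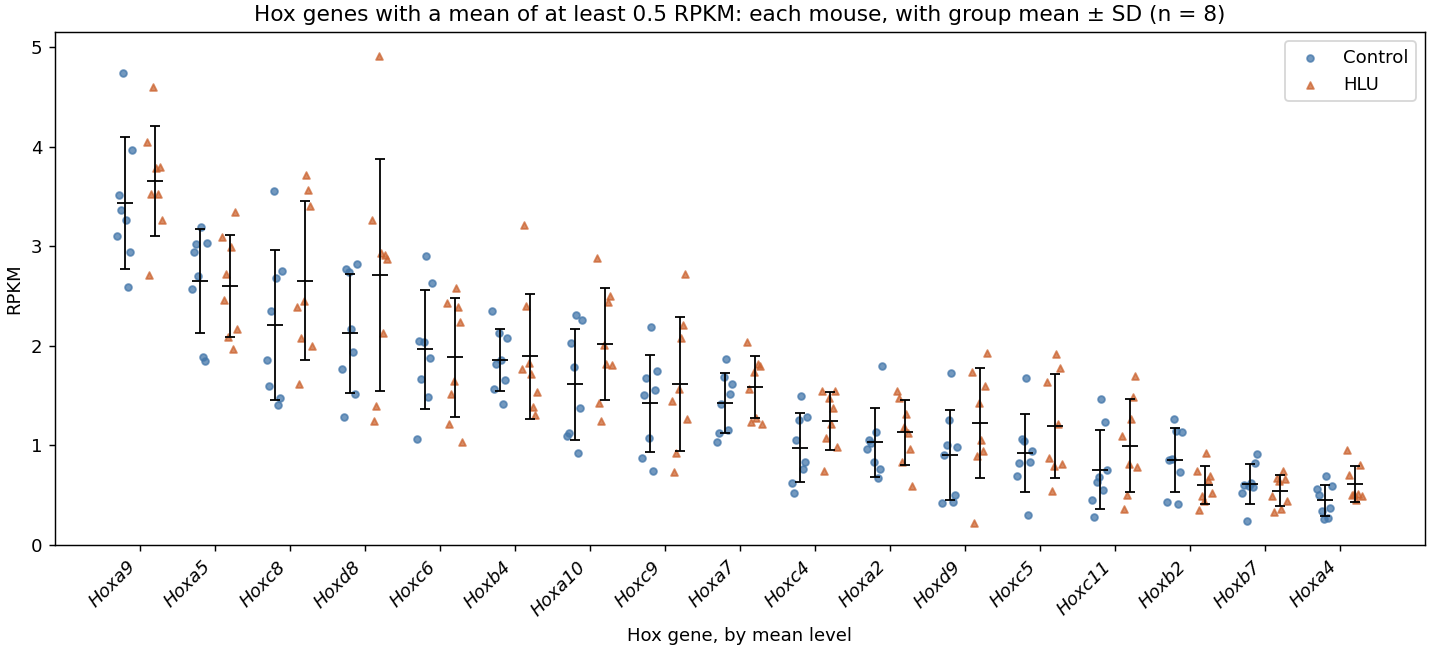
RPKM of the 17 Hox genes kept, ordered by mean level. Points are mice (circles, control; triangles, HLU) and black marks the group mean ± SD (n = 8 each); the ranges of the groups overlap for each gene.

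The remaining kept genes changed by -0.12 (Hoxb7) to 0.36 (Hoxc11) on the log2 scale. Hoxc8 measured 1.41 to 3.56 RPKM in control and 1.61 to 3.72 RPKM in HLU mice. Hoxc6 measured 1.06 to 2.90 and 1.04 to 2.59 RPKM, and Hoxc5 0.30 to 1.68 and 0.54 to 1.92 RPKM. Hoxc11 measured 0.28 to 1.47 RPKM in control and 0.36 to 1.70 RPKM in HLU mice. The groups overlapped in each of these genes.

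Which Hox genes varied with bone and which with marrow was asked of the same 16 mice, by the slope of each feature on the bone score or on the marrow score with the group as a covariate. A slope is the log2 change of a gene per unit of score, that is per mean doubling of the scored genes, and it was called at an adjusted p under 0.1 (limma, Benjamini-Hochberg over 16973 features). None of the Hox genes is part of a score. The scores were not clearly related within groups (Pearson r = -0.21, permutation p = 0.410 and adjusted p = 0.410; Spearman rho = -0.04, p = 0.913 and adjusted p = 0.913; r = -0.22 without the 2 mice farthest from the median; 2 relations computed).

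On the bone score, 16 of 17 Hox genes had a positive slope, with a median of 0.47 against 0.03 for all features. Only 1 was called, Hoxa10 (0.64, SE 0.16, adjusted p = 0.0530), where 3.73% of all features rose. No Hox gene fell with the bone score (limma, 0 of 17), and 0.336% of all features did. The largest slopes were those of Hoxc5 (0.78, SE 0.24, adjusted p = 0.118), Hoxc11 (0.66, SE 0.30), Hoxa10 and Hoxb2 (0.64, SE 0.21, adjusted p = 0.126). At the other end stood Hoxb4 (0.02, SE 0.18) and Hoxb7 (-0.13, SE 0.25). The call of Hoxa10 was lost without control mouse 1, 2, 3, 6 or 8, one at a time, with adjusted p from 0.110 to 0.141.

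On the marrow score the signs were turned around. A negative slope was found in 16 of the 17 genes, with a median of -0.49 against 0.14 for all features. With it 6 genes fell, where 9.11% of all features did: Hoxc9 (-0.84, SE 0.23, adjusted p = 0.0169), Hoxd8 (-0.72, SE 0.24, adjusted p = 0.0376), Hoxa10 (-0.58, SE 0.21, adjusted p = 0.0562), Hoxd9 (-0.97, SE 0.36, adjusted p = 0.0573), Hoxc11 (-0.86, SE 0.32, adjusted p = 0.0614) and Hoxc4 (-0.55, SE 0.21, adjusted p = 0.0714). A single gene rose, Hoxb4 (0.43, SE 0.17, adjusted p = 0.0735), where 24.4% of all features rose. Of the 5 kept genes of paralogs 9 to 11, 4 fell. Hoxa9 was the exception, with a slope of -0.22 (SE 0.14, adjusted p = 0.272).

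HLU mouse 7 had the lowest marrow score (-1.10) and HLU mouse 2 the highest (0.62). Hoxc9 was 2.72 RPKM in the first and 0.73 RPKM in the second, the highest and the lowest of the 16 mice. Hoxd9 was 1.60 and 0.22 RPKM in the same mice. Hoxb4 was 1.31 and 3.21 RPKM, the lowest and the highest of the 16. Without HLU mouse 2 the count of falling genes went from 6 to 1 (Hoxc9 remained called), and the slope of Hoxb4 became 0.25 (adjusted p = 0.381). Without control mouse 5 it went to 2 and without HLU mouse 3 to 3. The call of Hoxb4 was also lost without HLU mouse 3, 6 or 7. After median-of-ratios rescaling, which moved the median slope of all features from 0.14 to -0.0037, 11 Hox genes fell and 0 rose, with Hoxb4 at 0.37 (adjusted p = 0.181). The share of all features that fell went from 9.11% to 16.4% under this scaling, and the share that rose from 24.4% to 17%.

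**Figure D3:**
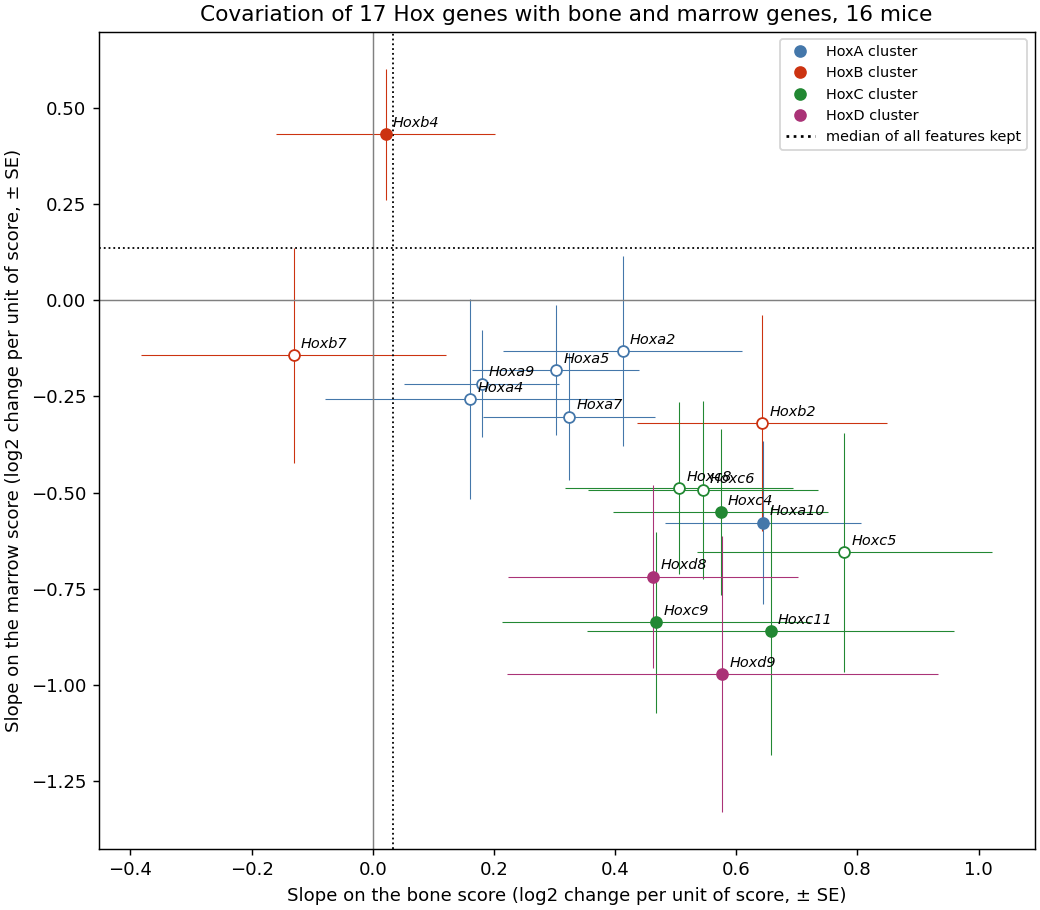
Slope of the 17 Hox genes kept on the bone score (x) and the marrow score (y), each in log2 change per unit of score with its SE, coloured by cluster. Filled points passed an adjusted p of 0.1 on at least 1 score, and dotted lines are the medians of all features (0.03 and 0.14); most Hox genes lie at the lower right, and Hoxb4 lies above the marrow median.

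The clusters were spread in this plane. The 6 HoxC genes had bone slopes of 0.47 to 0.78 and marrow slopes of -0.86 to -0.49, and the HoxD pair had marrow slopes of -0.72 and -0.97. The 6 HoxA genes lay nearer to 0, with a median marrow slope of -0.24. HoxB held both the gene that rose with marrow and Hoxb7, with -0.14 (SE 0.28). A list of 11 Hox genes described in blood progenitors had 7 members kept, of which 1 rose with the marrow score (Hoxb4) and 1 fell (Hoxa10), with a median slope of -0.26. Among all features 24.4% rose and 9.11% fell, so these counts are near or below the background. Hoxa9, Hoxa5 and Hoxa7, also on that list, had marrow slopes of -0.22, -0.18 and -0.30 that passed no threshold.

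Taken one marrow lineage at a time, the slope of Hoxb4 was 0.22 on the erythroid score (SE 0.16, adjusted p = 0.381), 0.39 on the granulocyte score (SE 0.16, adjusted p = 0.0848), 0.39 on the B lymphocyte score (SE 0.14, adjusted p = 0.0884) and 0.24 on the megakaryocyte score (SE 0.17, adjusted p = 0.356). On the score of 10 blood progenitor genes it was 1.15 (SE 0.40, adjusted p = 0.0611), a score whose own range over the mice was narrower (-0.41 to 0.30). Hoxc9 had a slope of -0.82 on the granulocyte score (SE 0.21, adjusted p = 0.00999) and of -0.55 on the erythroid score (SE 0.23, adjusted p = 0.120). Hoxd8 fell with the erythroid (-0.67, SE 0.19, adjusted p = 0.0266) and granulocyte scores (-0.83, SE 0.19, adjusted p = 0.00463), and its slope on the B lymphocyte score was -0.22 (SE 0.24, adjusted p = 0.612). The 3 parts of the marrow score thus gave unlike counts. With the granulocyte score 10 of the 17 Hox genes fell (13.1% of all features), with the erythroid score 5 (6.03%) and with the B lymphocyte score 0 (limma, 2.95%). Whether these slopes differ between lineages was not tested.

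**Figure D4:**
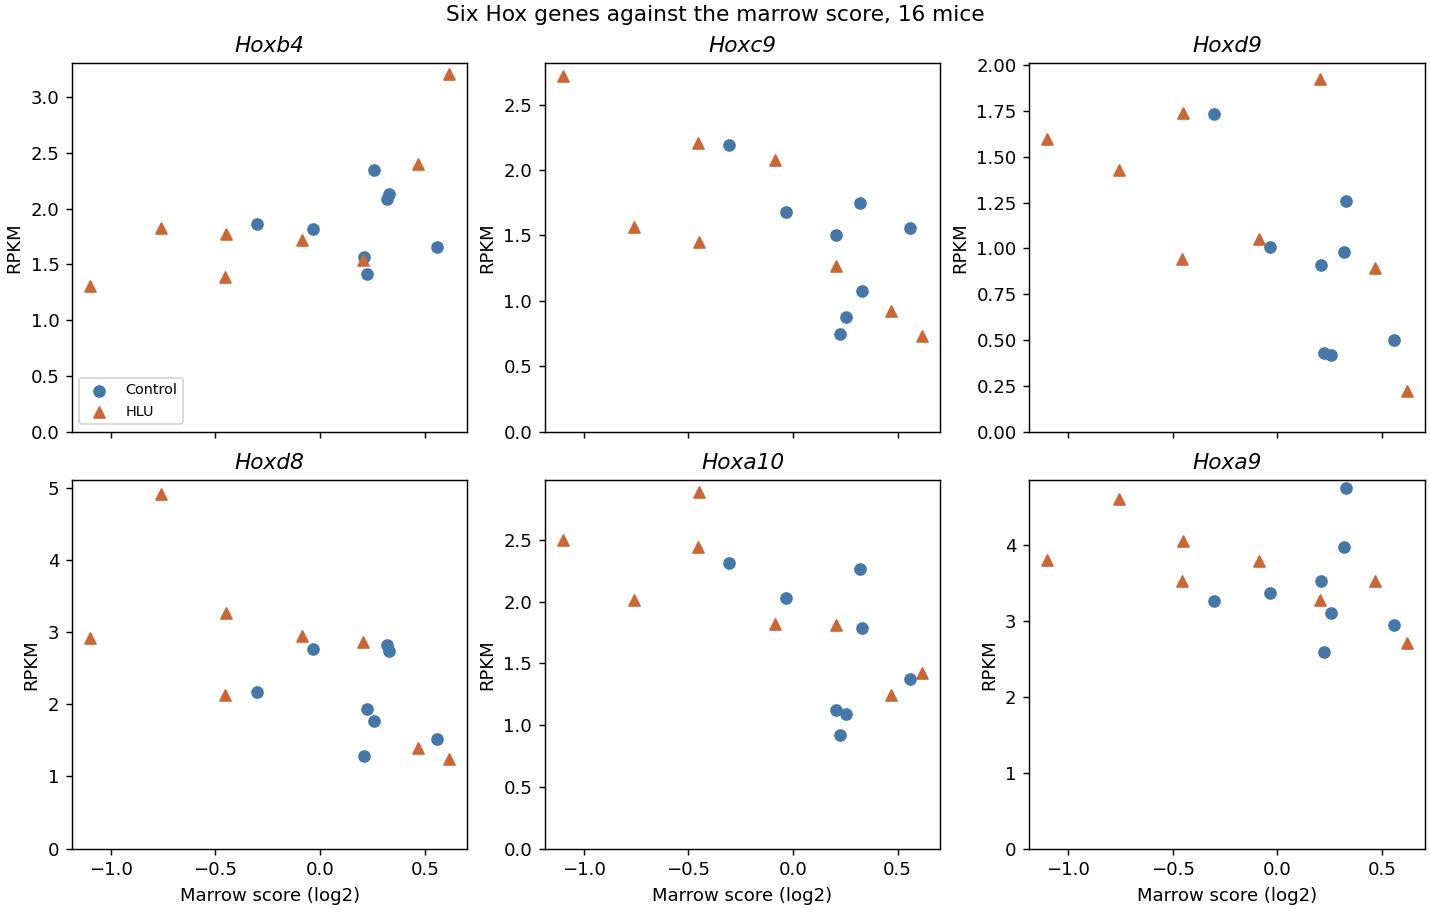
RPKM of Hoxb4, Hoxc9, Hoxd9, Hoxd8, Hoxa10 and Hoxa9 (y) in each mouse against its marrow score (x, log2 units), with circles for control and triangles for HLU mice. Hoxb4 is highest and Hoxc9 and Hoxd9 lowest at the right end, in HLU mouse 2, and Hoxa9 changes little along the axis.

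Genes of tendon and periosteum, the fibrous sheath of bone, moved with the marrow score as well. The score of 10 such genes (among them Postn, Tnmd and Fmod) fell as the marrow score rose within groups (Pearson r = -0.72, permutation p = 0.00249 and adjusted p = 0.00498; Spearman rho = -0.68, p = 0.00782 and adjusted p = 0.0156; r = -0.75 without the 2 mice farthest from the median). It ranged from -1.29 to 0.59 in control and from -0.81 to 0.99 in HLU mice. On this score, in a fit chosen after the data had been seen, 8 of the 17 Hox genes rose, where 17.1% of all features did, and none fell, where 21.1% did. These were Hoxc9 (0.61, SE 0.15, adjusted p = 0.00785), Hoxc4 (0.49, SE 0.12, adjusted p = 0.00791), Hoxa10 (0.49, SE 0.13, adjusted p = 0.00833), Hoxc11 (0.72, SE 0.20, adjusted p = 0.0128), Hoxc6 (0.46, SE 0.14), Hoxc8 (0.44, SE 0.14), Hoxd8 (0.51, SE 0.16) and Hoxa7 (0.27, SE 0.10, adjusted p = 0.0568). With it as a further covariate, 0 Hox genes kept a called slope on the marrow or on the bone score (limma), and the slope of Hoxc9 on the marrow score went from -0.84 to -0.42. In the same fit 0.719% of all features still fell and 7.91% rose with the marrow score, and 0.683% rose with the bone score, so the loss was shared by features at large. Myod1, a muscle gene, fell with the marrow score as well (-1.32, SE 0.38, adjusted p = 0.0195), and with its level as a further covariate 1 Hox gene fell (Hoxd8) and 0 rose with the marrow score, where 7.84% of all features fell and 21.8% rose. Endothelial genes gave a further set of slopes, also chosen after the data had been seen. With the score of 10 such genes 6 of the 17 Hox genes rose, where 23.7% of all features did, and 0 fell (limma), where 17.1% did. They were Hoxc6 (1.28, SE 0.27, adjusted p = 0.00351), Hoxc9 (1.44, SE 0.35), Hoxc11 (1.68, SE 0.46), Hoxc5 (1.48, SE 0.42), Hoxb2 (1.10, SE 0.38) and Hoxa10 (0.93, SE 0.34). The part of these tissues in the Hox slopes was not tested beyond these fits.

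Among themselves, the Hox genes mostly rose and fell together. Over the 136 pairs of kept genes, the within-group Pearson correlation across 16 mice had a median of 0.45 and was positive in 115 pairs, as a description of samples that share libraries and composition. Hoxa10 and Hoxc4 were most alike (0.85), from different clusters, followed by Hoxa7 with Hoxa10 (0.83) and Hoxb2 with Hoxc6 (0.82). The 34 pairs within a cluster had a median of 0.57 and the 102 pairs between clusters 0.40. Hoxb4 had a positive correlation with 3 of the other 16 genes, a median of -0.23, and its lowest value with Hoxc9 (-0.59). Without Hoxb4 the lowest of the 120 pairs was -0.23.

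**Figure D5:**
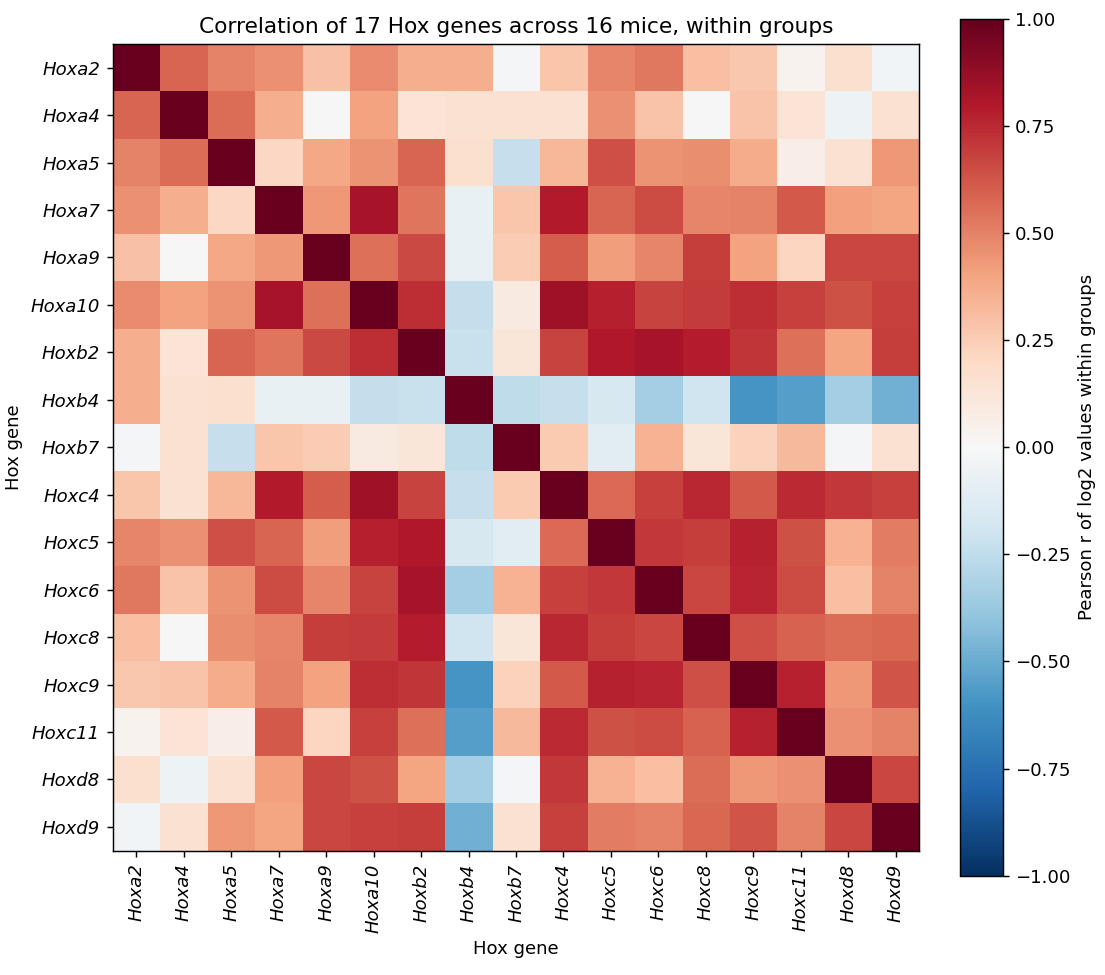
Pearson correlation of log2(RPKM + 0.1) between the 17 Hox genes kept, within groups and across 16 mice, from blue (-1) to red (1). The row of Hoxb4 is mostly blue, and the block of HoxC genes with Hoxa10 and Hoxb2 is red.

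The genes most like the 6 highest Hox genes were sought among 11393 others with a mean of at least 2 RPKM. For Hoxd8 they were Bmpr1a (a BMP receptor, r = 0.93), Sorbs2 (0.93) and Vldlr (0.92). For Hoxc8 they were Arhgap31 (0.89), Cxxc5 (0.88) and Npnt (nephronectin, a matrix protein, 0.87), and for Hoxc6 Cdh5 (VE-cadherin of endothelium, 0.88), Capn2 (0.88) and Plekha5 (0.88). For Hoxa9 they were Htra4 (0.88), Maf (0.85) and Gm25135 (0.84), and for Hoxa5 Fkbp1a (0.77), Tanc1 (0.76) and Scara3 (0.75). Hoxb4 stood nearest to B3galtl (0.81), Nedd9 (0.81) and Eif2ak3 (0.81).

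Hox proteins bind DNA with cofactors of the PBC and Meis families. Of 11 genes listed as cofactors, among them Tgif1 and Tgif2 of neither family, 9 were kept. None was called between HLU and control, 5 rose with the marrow score (Meis1, Pbx2, Pbx3, Tgif1 and Tgif2, slopes 0.32 to 0.52), and 1 fell, Pknox2 (-0.86, SE 0.21, adjusted p = 0.00873), beside 24.4% and 9.11% of all features. Meis1, a partner of Hoxa9 in blood progenitors, measured 1.51 to 2.07 RPKM in control and 1.23 to 1.89 RPKM in HLU mice, with a marrow slope of 0.34 (SE 0.11, adjusted p = 0.0371). Meis2 had 0.31 RPKM in the mean. Of 21 regulators of Hox genes 18 were kept and none was called between the groups. With the marrow score 3 rose, the Polycomb subunits Ezh2 (0.95, SE 0.15), Eed (0.38, SE 0.16) and Suz12 (0.60, SE 0.22), and 3 fell, Gdf11 (-0.44, SE 0.18), Cyp26b1 (-1.07, SE 0.37) and the retinoic acid receptor Rarb (-1.21, SE 0.17). The 3 of 18 that rose were a smaller share than the 24.4% of all features, and 9.11% of all features fell. With the bone score 2 rose, Gdf11 (0.53, SE 0.13) and Phc1 (0.44, SE 0.13), beside 3.73% of all features.

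Genes that mark limb position beside the Hox genes were read in the same way. Shox2, needed for the limb segment nearest the trunk, was at 3.80 to 9.37 RPKM in control and 4.83 to 9.31 RPKM in HLU mice. Its mean of 6.38 RPKM was above the 3.55 RPKM of Hoxa9. Tbx4, a hindlimb gene, was detected in all 16 mice at 0.073 to 0.75 RPKM, and Pitx1, which lies above it in the embryo, had 20 reads in 6 mice. Tbx5, a forelimb gene, had 80 reads in 14 mice, up to 0.16 RPKM. Of the 26 genes of this list 11 were kept and none was called between HLU and control. Tbx2 (1.14, SE 0.12), Dlx5 (1.05, SE 0.26) and Dlx3 (0.98, SE 0.14) were among those that rose with the bone score, as 3.73% of all features did. With the marrow score 3 fell, Dlx5 (-0.94, SE 0.35), Isl1 (-0.90, SE 0.35) and Prrx1 (-0.82, SE 0.16), the last also in the tendon and periosteum list, beside 9.11% of all features.

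Noncoding genes within the clusters were mostly low. Of 20 such genes 9 were listed and 3 kept, with none called in any fit. Hoxb3os, antisense to Hoxb2 and Hoxb3, measured 1.58 to 3.05 RPKM in control and 1.40 to 3.08 RPKM in HLU mice, with a mean of 2.20 RPKM against 0.73 RPKM for Hoxb2. Hotair, from the HoxC cluster, had 0.22 RPKM in the mean and Hoxa11as 0.029 RPKM. Mir10a, next to Hoxb4, had 34 reads and Mir10b, in HoxD, 20 reads in all, and such libraries hold precursors rather than mature miRNAs. The mature forms of the miRNA families of the clusters are shown for their shared seeds (bases 2 to 8, in capitals), since both families repress Hox messages of their own or other clusters.
mmu-miR-10a-5p: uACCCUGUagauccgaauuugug
mmu-miR-10b-5p: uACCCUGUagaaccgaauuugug
mmu-miR-196a-5p: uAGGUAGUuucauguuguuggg
mmu-miR-196b-5p: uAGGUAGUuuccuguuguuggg
The miR-10 pair shares one seed and the miR-196 pair another. Mir196b had 3 reads, in HLU mouse 7, Mir196a-1 had 2 reads and Mir196a-2 none, so no change of these genes was detectable at this depth.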

How the data were processed

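RNA of femoral cortical bone from 8 control and 8 HLU mice was sequenced from TruSeq libraries, 8 to a lane. The authors deposited 1 table of RPKM per mouse, and the labels' processing notes name TopHat2, DESeq2 and mm9 without versions. How RPKM was computed is not given in the sources used here. Whole reads could be recovered for 100% of the 16973 features kept (tolerance 0.02), with divisors of 7067512 to 21363584 reads, and intervals from them cover counting error only. Features averaging 0.5 RPKM or more were tested on log2(RPKM + 0.1) with limma 3.58.1 (R 4.3.3), Benjamini-Hochberg adjusted, as RPKM is no count; folds of low genes are understated on this scale. HLU was compared with control, and slopes on the list scores had the group as covariate. Single values were tested by two-sided exact permutation tests (scipy 1.17.1). The limma fits for HLU against control and for the marrow slope were run on simulated data, and each missed part of the changes set in. Those changes were 2-fold, for the slope per unit of score. Every kept Hox gene changed by less than 2-fold between the groups, so smaller changes could be missed more often. The bone slope was not simulated. The labels number the mice as separate animals. Mice that share a number across the groups were not treated as pairs in the main fits. Of their 8 pair correlations 3 were over 0.1, the highest 0.51, which does not settle whether they were paired. The Hox genes, gene lists and tests were chosen with earlier results of these data known. All kept Hox genes were eligible to be named, and the 6 highest for the most-like genes. Coordinates and lengths are of GRCm38 (GENCODE M21, RefSeq), not of mm9, and the files carry none. Alternatives were other pseudocounts, filters, scalings, covariates, a replicate block and leaving out each mouse. Values of a few single genes are not reported here.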

Additional observations from a re-analysis of the deposited data

Results flagged for a closer look

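Among 34 groups of 8 mice (17 Hox genes in each condition), 2 had a mouse that stood apart from the others by the gap to its nearest neighbour over the group's range (Dixon's criterion), and chance alone flags about 1 in 20 groups. Hoxb7 was lowest in control mouse 3, at 0.237 RPKM, with a gap of 0.554 of the range on the log2 scale. Hoxd9 was lowest in HLU mouse 2, at 0.223 RPKM, with a gap of 0.612 of the range on the log2 scale. The same mouse had the highest marrow score of the 16. With gap and range taken in RPKM instead, both shares lay below the limit, so neither mouse stood apart on that scale.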

How the results depend on the processing

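The count of Hox genes past an unadjusted p of 0.05 between HLU and control was 0, and became 1 under quantile normalization (Hoxc4) and with the bone and marrow scores or the tendon and periosteum score as covariates (Hoxb2). Leaving out 1 mouse gave 0 to 1 (Hoxb2 without control mouse 6, Hoxd9 without HLU mouse 2). The count rising with the bone score, 1, became 0 at a mean of at least 2 RPKM (4 Hox genes tested), 5 after median-of-ratios rescaling, 3 with voom, 2 with both scores in 1 fit, and 0 with Myod1 or the tendon and periosteum score as covariate. Leaving out 1 mouse gave 0 to 3 (0 without control mouse 1, 3, 6 or 8). The count falling with the marrow score, 6, became 1 at a mean of at least 2 RPKM, 11 after median-of-ratios rescaling, 1 with Myod1 and 0 with the tendon and periosteum score as covariate. Leaving out 1 mouse gave 1 to 9. The count rising with the marrow score, 1, became 0 without the filter, at 2 RPKM, under median-of-ratios and quantile scaling and with either covariate. Leaving out 1 mouse gave 0 to 1. With the replicate block, 0 Hox genes passed between HLU and control, 0 rose with the bone score, 3 fell with the marrow score (Hoxd8, Hoxc9 and Hoxd9) and 0 rose with it. Pair correlations of same-numbered mice ran from -0.17 to 0.51, and 3 of 16 mice correlated best with their own number. Beyond the fewer genes tested at 2 RPKM and the fewer mice when 1 is left out, the cause of these moves was not tested. The Hox slopes called on the bone or marrow score kept their sign in each setting run. Slopes on single lists, and those of the other genes named, were read in the main setting only. Over the 17 genes, positive bone slopes numbered 16 and became 14 under quantile and 15 under median-of-ratios scaling, and positive marrow slopes numbered 1 and became 2 with the replicate block or Myod1 and 3 with the tendon and periosteum score. Changes near 0 reversed: Hoxa5 (-0.02) became 0.0676 under median-of-ratios and 0.0621 under quantile scaling and ran from -0.0898 to 0.0300 without 1 mouse. Hoxb4 (-0.01) became 0.0767 and 0.0537 under these scalings, 0.16 with the bone and marrow scores, 0.0918 with Myod1 and 0.0662 with the tendon and periosteum score, and ran from -0.12 to 0.0529. Hoxc6 (-0.07) became 0.0234 and 0.0076 under the scalings and ran from -0.18 to 0.0396. Hoxc9 (0.14) became -0.17 with the bone and marrow scores, -0.11 with Myod1 and -0.0374 with the tendon and periosteum score. The covariates Myod1 and the tendon and periosteum score were chosen after seeing the data. Depth limits the genes below 0.5 RPKM most, with 3 reads on a gene of 1 kb worth 0.140 to 0.424 RPKM.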

Other observations

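Reads on the 5′ ends of the clusters, paralogs 12 and 13, were unevenly spread over the mice, an observation made after the values were seen. Of 66 such reads in all, 20 came from control mouse 5, 8 from HLU mouse 6 and 7 from control mouse 4, and the other mice had 0 to 4 each. Myod1 was at 3.21 RPKM in control mouse 5, 3.08 in HLU mouse 6 and 0.322 in control mouse 4. Which cells these reads came from was not tested.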
